A study of Mus musculus with 25 samples.

Results

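The comparison described here sets mouse lungs after 72 h of calorie restriction against lungs of fed mice at 0 h. It uses 6 of the 25 arrays of the series, chosen by their titles: 2 arrays of CR 72 h and all 4 arrays of fed 0 h, with every non-control probe set of the Affymetrix MG-U74Av2 array. Per the labels, the mice were C57BL/6, an inbred laboratory strain, the CR group had its food cut by 2/3 for 72 h, and the tissue was whole lung. Age and sex are not given in the sources used here. The fed group is described as always fed, but its description also carries the words for the 2/3 reduction, so its feeding is not certain; it was read as unrestricted. By the labelled hours both groups have the same clock time. The fed 0 h arrays carry number 1 or 2 and a letter a or b, and the CR 72 h arrays carry number 1 and the letters a and b. The labels do not say whether a and b are different animals or 1 RNA hybridised again; in the second case every p-value here reflects technical spread alone.

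A note on the RNA of another array of the series says that restriction by 2/3 costs mice alveoli, the gas-exchange sacs of the lung, within 3 days. The 72 h of restriction studied here equal that span. Fasting and food restriction raise circulating glucocorticoids, steroid hormones that enter cells, bind the glucocorticoid receptor and switch on target genes. Low insulin lets FOXO transcription factors enter the nucleus, and fatty acids released from fat act on PPAR receptors, so tissues turn from glucose to fat as fuel. The lung also holds many endothelial cells, resident macrophages and blood lymphocytes, and whole-lung RNA is a mix of them all. In such bulk samples fewer cells of a type and less RNA per cell cannot be told apart.

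The sequences below are stretches upstream of the gene start in the 5 genes called higher at 72 h that hold a match to GNACANNNTGTNC, the palindromic motif to which the glucocorticoid receptor is known to bind as a dimer. They are shown because glucocorticoid-induced genes have the largest share of rises among the 41 gene lists used. Of the 5, only Map3k6 and Sgk1 are called members of that list. No match was found for its other called members, such as Fkbp5, Zbtb16, Per1, Ddit4 and Pdk4. Capitals mark the match.
Map3k6: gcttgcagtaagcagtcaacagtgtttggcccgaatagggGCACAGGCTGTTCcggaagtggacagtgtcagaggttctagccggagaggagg
Sgk1: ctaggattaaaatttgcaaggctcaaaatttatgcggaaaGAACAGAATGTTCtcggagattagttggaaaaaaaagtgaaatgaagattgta
Slc10a6: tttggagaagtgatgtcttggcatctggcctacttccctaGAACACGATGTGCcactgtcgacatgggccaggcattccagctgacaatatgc
Tinagl1: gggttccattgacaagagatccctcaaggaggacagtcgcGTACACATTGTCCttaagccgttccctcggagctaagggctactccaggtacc
Txnip: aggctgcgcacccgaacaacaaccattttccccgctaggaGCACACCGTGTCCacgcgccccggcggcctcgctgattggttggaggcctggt
The sequences are RefSeq's, build GRCm38.p6, read 5′ to 3′ along the gene. Map3k6 lies on the plus strand (chr4:133240597-133240689), as do Sgk1 (chr10:21993662-21993754) and Txnip (chr3:96557745-96557837). Slc10a6 lies on the minus strand (chr5:103629514-103629606), as does Tinagl1 (chr4:130174897-130174989). Both strands were searched over 250 bases before any listed start; the motif reads the same on both. It stood before 5 of 197 risen genes with a listed start (2.54%) and 0 of 111 fallen ones, against 16 of 4581 tested genes (0.349%) and 119 of all 27025 listed genes (0.44%). These shares describe letters in 1 window and say nothing of binding.

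Signals are the deposited probe set intensities, scaled to a common array median; values under 80.37 were raised to that floor before log2. Of 12422 non-control probe sets, 7440 passed the filter on dim probes. All 24 arrays of the platform entered 1 limma fit, and a probe was called where its two-sided p, adjusted over the 7440 by Benjamini-Hochberg, was under 0.05. The 2 CR 72 h arrays correlated at r = 0.973 with each other, at 0.925 to 0.947 with fed 0 h number 2 and at 0.844 to 0.871 with number 1. The 2 fed numbers themselves differed at 2969 of 7440 probes. The highest deposited signal was 32150 and 36540 on the CR 72 h arrays, against 93450 and 86940 on number 1 and 53260 and 54310 on number 2. The ratio of 3′ to 5′ actin probes, a sign of RNA quality, was 1.63 to 1.71 in CR 72 h and 1.87 to 2.31 in fed 0 h, and that of Gapdh was 1.21 to 1.38 and 1.76 to 2.02, so neither overlapped between the groups. The part of these differences in the results below was not tested.

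At 72 h, 433 of 7440 probes were called (5.82%): 274 higher (3.68%) and 159 lower (2.14%) in CR, for 236 and 141 named genes. The change was over 2-fold in 135 of the higher and 61 of the lower probes, and the median fold among the called was 1.99 up and 1.91 down. With only the 6 compared arrays in the fit, 12 probes were called, 11 higher and 1 lower. The leave-outs given below kept the other groups in the fit and so used their spread. Col3a1, Cyp1a1, Errfi1, Dusp1 and Edn1, among others, kept the call in each leave-out but not in the fit of the 6 arrays. Both CR arrays lay above all 4 fed arrays at 1175 probes (15.8%) and below them at 929 (12.5%), called or not. Against number 1 alone 3049 probes were called (41.0%), 1672 higher and 1377 lower. Against number 2 alone 428 were called (5.75%), 314 higher and 114 lower. The counts of list members against a single number, given below, are to be read beside these. Called against all 4 arrays and against each number were 155 probes higher (2.08%) and 63 lower (0.847%). Against the fed arrays at 2 and 4 h, which were taken at another clock time but share no array with fed 0 h, 115 were called (1.55%). Of those 75 rises and 40 falls, 61 and 26 were among the 274 rises and 159 falls against fed 0 h; the CR arrays are the same in both. The count was 115 without CR 72 h array 1a, 61 without 1b, 264 without fed array 1b, 292 without fed 1a, 1079 without fed 2a and 1088 without fed 2b. Of the 108 called probes named by the rule, 28 kept the call with each of the 6 arrays left out in turn, 23 of them higher and 5 lower, and all 108 kept their sign.

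**Figure D1:**
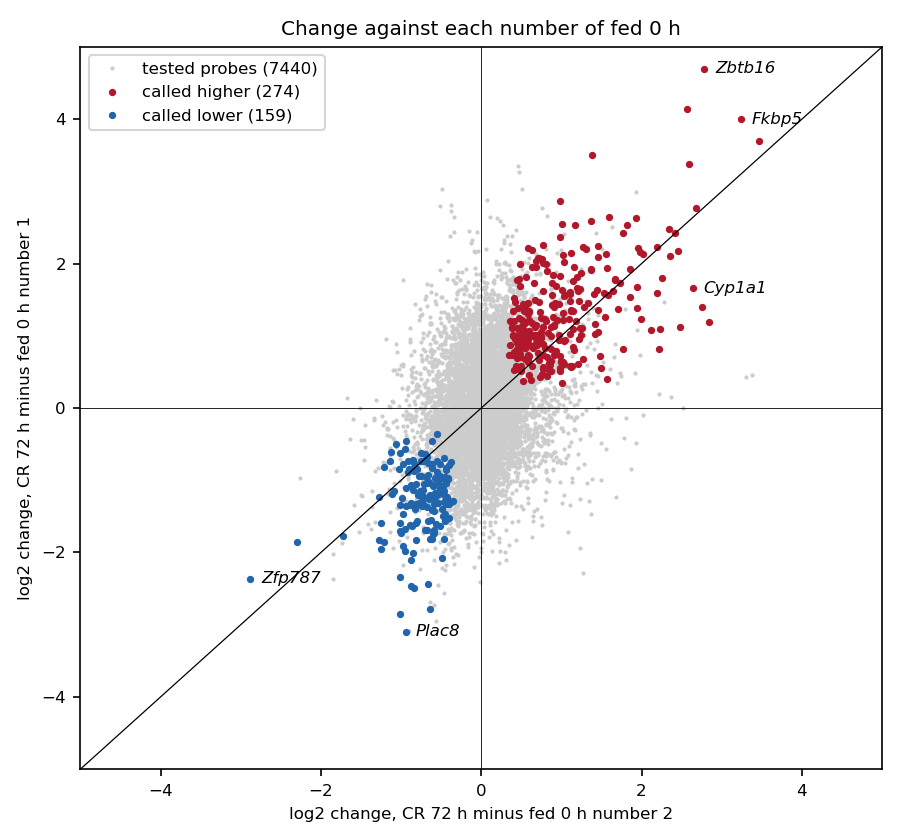
Each point is 1 of the 7440 tested probes, with its log2 change against fed 0 h number 2 across and against number 1 up; red and blue points were called higher (274) or lower (159) against all 4 fed arrays. Both axes share the CR 72 h arrays, so the slope of the cloud is no result; the grey cloud is taller than wide, and Fkbp5 and Zfp787 lie near the diagonal of equal change.

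Glucocorticoid-induced genes rose at 72 h. Of 27 measured list members 19 were called higher and none lower, against 3.77% higher and 2.37% lower over the 5706 genes tested. The list was chosen with earlier results of these data known, so its share is no independent test. The list's median log2 change was 1.20, where the median over all genes was 0.0381. Against number 1 alone the median was 1.15 and against number 2 alone 1.04, and 17 of the 19 were called against both. These 2 comparisons reuse the CR arrays and parts of the same fed arrays. Against fed 2 and 4 h it was 1.19, with 16 called. Leaving out 1 array gave 13 to 20 called rises.

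Fkbp5 encodes a co-chaperone that holds the glucocorticoid receptor in its low-affinity state. Its signal was 3530 and 4450 in CR 72 h, against 279.2, 220.6, 357.6 and 487.1 in fed 0 h. Both CR arrays lay far above all 4 fed arrays, and the fold was 12.3 (95% confidence interval 8.75 to 17.3; adjusted p = 3.98e-08). Zbtb16, a transcriptional repressor (also known as PLZF), stood at 8151 and 9171 in CR 72 h and at 250.4, 443.4, 1107 and 1422 in fed 0 h. Its fold was 13.4 (6.95 to 25.7; adjusted p = 6.17e-05), and the fed numbers 1 and 2 did not overlap. Map3k6, a stress kinase, was at 2044 and 2276 in CR 72 h and at 106.1, 262.7, 112.0 and 342.5 in fed 0 h, a fold of 11.9 (7.07 to 20.1). All 3 genes kept the call with each array left out.

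Per1, a clock repressor with a glucocorticoid-driven arm, was at 1368 and 1431 in CR 72 h, against 220.3, 306.2, 416.5 and 404.0 in fed 0 h, a fold of 4.29 (adjusted p = 0.000117). Ddit4 (REDD1) restrains mTORC1, the growth-signalling kinase. It was at 4911 and 4231 in CR 72 h and at 1224, 908.7, 844.6 and 931.5 in fed 0 h, a fold of 4.71 (adjusted p = 1.77e-07). Cdkn1a, which encodes the cell-cycle inhibitor p21, was at 3440 and 4480 in CR 72 h and 967.2, 791.4, 840.4 and 1174 in fed 0 h, 4.21-fold higher, and its second probe was called too, at 2.15-fold. The lowest CR value of each of these genes lay above every fed value. Cebpd and Cebpb, transcription factors of the acute response, rose 2.38- and 2.56-fold. Nfkbia, which encodes the inhibitor of NF-kB, rose 2.04-fold on its brighter probe, and Sult1a1, a sulfotransferase, 3.16-fold. Mt2, a metal-binding metallothionein, rose 1.58-fold, while its neighbour Mt1, at 1.51-fold, missed the threshold (adjusted p = 0.0581). The list's other 8 members were not called.

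The 5 genes with the motif shown above moved by different amounts. Map3k6 is given above. Slc10a6, a carrier of sulfated steroids, was at 3280 and 3758 in CR 72 h and at 1092, 945.1, 1035 and 1171 in fed 0 h, a fold of 3.32 (2.71 to 4.07; adjusted p = 3.81e-07). Tinagl1, a matrix glycoprotein, was at 2742 and 2565 in CR 72 h and 651.3, 1119, 780.7 and 1211 in fed 0 h, 2.91-fold higher. Sgk1, a kinase that raises sodium uptake, rose 1.76-fold (5143 and 5401 in CR 72 h, 2055 to 3702 in fed 0 h), and Txnip, which binds thioredoxin and lowers glucose uptake, 1.62-fold. Only 1 of the 2 Txnip probes was called; the other was at -0.24 log2. Slc10a6 and Tinagl1 were picked after their values were seen.

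**Figure D2:**
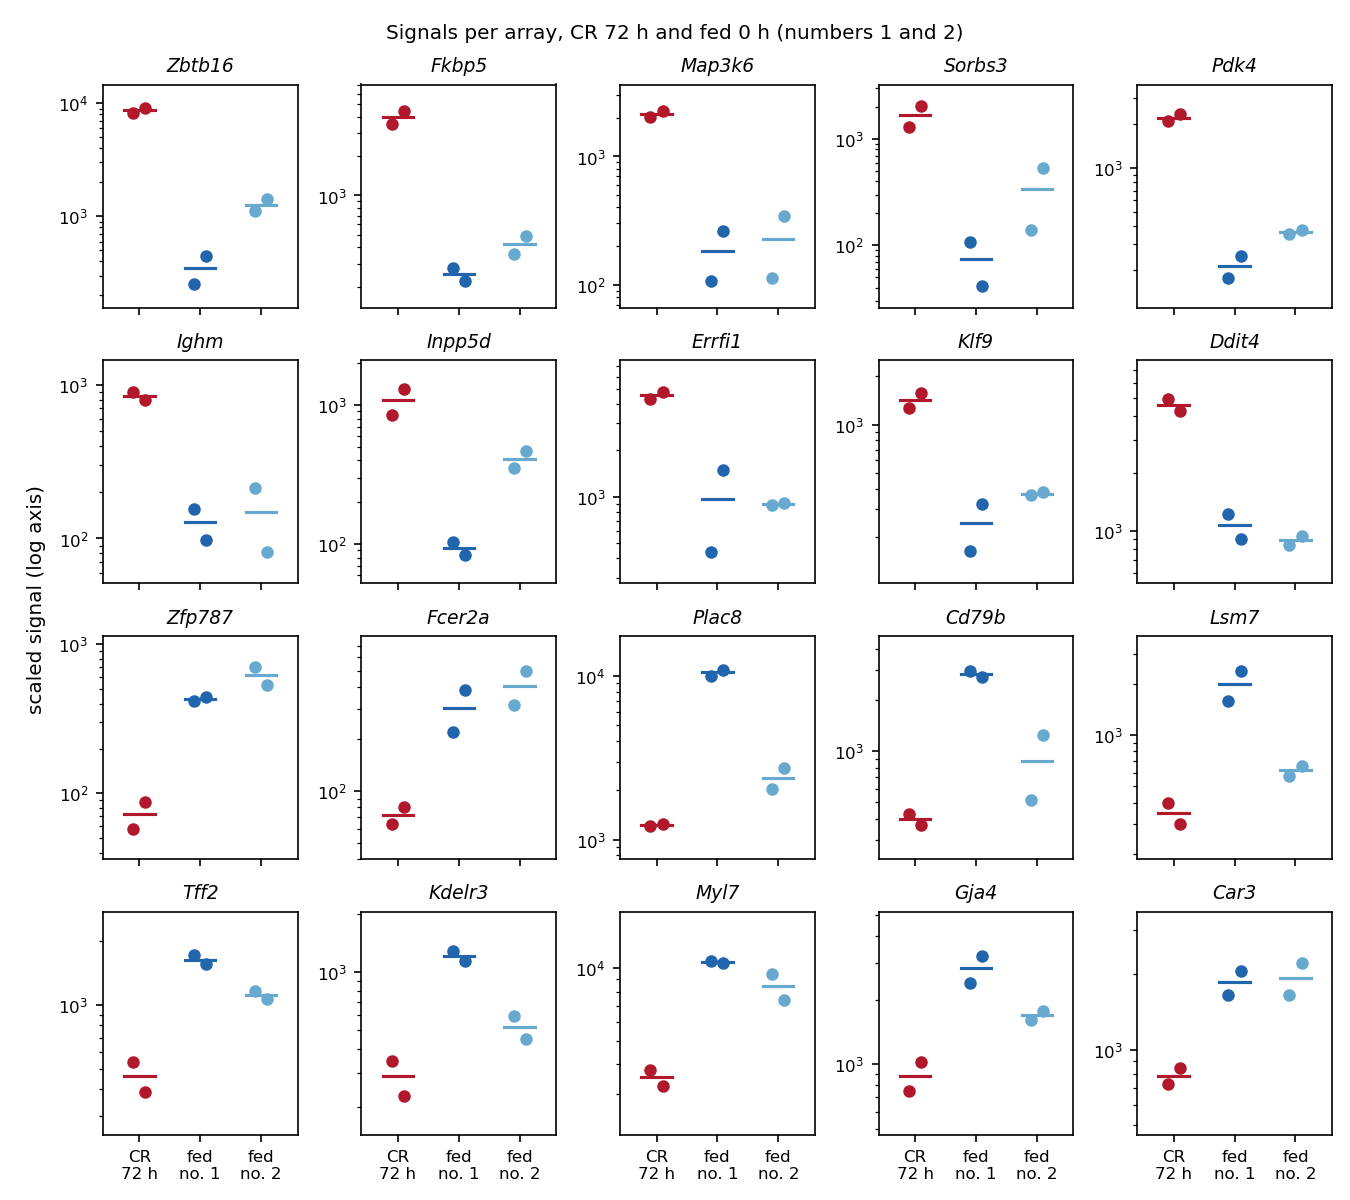
Scaled signal per array (log axis) of the 10 largest rises and 10 largest falls under the rule for named genes, in CR 72 h (red), fed 0 h number 1 (dark blue) and number 2 (light blue); dots are arrays, lines the means of 2. The CR dots lie beyond all 4 fed dots in every panel, by the rule, and the fed numbers stand apart in several, such as Zbtb16 and Plac8.

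A few genes of fatty acid handling rose, with Pdk4 and Angptl4 counted in the glucocorticoid list as well. Of 22 measured genes of fatty acid oxidation and PPAR targets 4 were called higher and none lower, with a median of 0.27, and the same count of 4 held with either CR array left out. Pdk4 is a mitochondrial kinase that inhibits pyruvate dehydrogenase and so the conversion of pyruvate to acetyl-CoA. Its signal was 2094 and 2314 in CR 72 h and 178.3, 251.9, 351.7 and 379.2 in fed 0 h, a fold of 7.91 (5.54 to 11.3; adjusted p = 4.43e-07). Lpl, the lipase that frees fatty acids from lipoproteins in capillaries, was at 4712 and 5199 in CR 72 h and 969.9, 1171, 1188 and 1369 in fed 0 h on its brighter probe, 4.25-fold higher. Its dimmer probe was 4.51-fold higher, with fed array 1a at 100.2 below the other 3 at 245.4 to 269.8. Angptl4, a secreted inhibitor of Lpl, rose 4.09-fold (2103 and 2221 in CR 72 h, 440.0 to 652.8 in fed 0 h), and 2 other probes stood at 2.12-fold, called, and at 0.13 log2, not called. Acot1, a cytosolic thioesterase, rose 2.35-fold. The other 18 genes of this list were not called. The lipase of fat droplets, Pnpla2 (ATGL), rose 2.25-fold (8296 and 10160 in CR 72 h, 3829 to 4464 in fed 0 h), and the adiponectin receptor gene Adipor2 1.61-fold.

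Genes of fat making did not move as 1 group. Of 17 measured members 2 were called higher, the Pnpla2 and Adipor2 just given, and 2 lower. Car3, a carbonic anhydrase abundant in fat cells and muscle, was at 731.0 and 844.8 in CR 72 h and 1652, 2049, 1647 and 2203 in fed 0 h, 2.38-fold lower. Thrsp, a switch of lipogenesis, was 3.19-fold lower, but its fed arrays read 1637 and 1370 in number 1 and 498.0 and 495.1 in number 2, and against number 2 alone it missed the threshold (adjusted p = 0.0808). Fasn, the fatty acid synthase, was at 3695 and 4488 in CR 72 h and 2609 to 3628 in fed 0 h (adjusted p = 0.106). Of 12 cholesterol synthesis genes 1, Mvk (mevalonate kinase), was called, 1.56-fold lower, and the list's median was -0.374 against number 1 and 0.22 against number 2. Of these calls, that of Pnpla2 held with each array left out; Car3 reached an adjusted p of 0.122 without a CR array, Adipor2 0.318, and Thrsp and Mvk were lost without a fed number 1 array as well.

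Of 27 FOXO targets and atrophy or autophagy genes 6 were called higher and none lower (median 0.229): Ddit4, Cited2, Txnip, Foxo3, Bcl6 and Sesn1. Over all genes tested 3.77% were called higher and 2.37% lower, and Ddit4 is also in the glucocorticoid list. Against number 1 alone 9 were called higher and 4 lower (median 0.128), and against number 2 alone 11 higher and 1 lower (0.33). Against fed 2 and 4 h 1 was called higher and none lower (0.19). Foxo3, itself a FOXO factor, was at 3272 and 4463 in CR 72 h, against 1022 and 885.2 in number 1 and 2164 and 2316 in number 2. Its change was 2.01 log2 against number 1 and 0.77 against number 2, called against both. Cited2, a coregulator that competes with hypoxia-inducible factors, was at 3057 and 4005 in CR 72 h and 1317 to 1933 in fed 0 h, 2.36-fold higher. Without CR array 1b the list had 1 call, with an adjusted p of 0.237 for Foxo3 and 0.0987 for Cited2. Of 14 insulin and IGF signalling genes none was called.

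Some genes of the MAP kinase cascade and its brakes rose. Of 23 MAP kinase cascade and brake genes 5 were called higher and none lower: Map3k6, Errfi1, Dusp1, Mapk14 and Dusp6. Of these, Map3k6, Errfi1 and Dusp1 also count among the called glucocorticoid-induced genes. So do Cebpd, Dusp1 and Zfp36 of the immediate early genes and Klf9 of the Kruppel-like factors given below, so these lists are not separate results. Errfi1, which inhibits the EGF receptor, was at 7840 and 8839 in CR 72 h and 3028, 3279, 3293 and 3571 in fed 0 h on its brighter probe, a fold of 2.53 (adjusted p = 1.34e-05), and 5.32-fold higher on its dimmer one. Dusp1, the phosphatase that switches off p38 and JNK, was at 9192 and 9956 in CR 72 h and 5462, 5618, 4573 and 5508 in fed 0 h, 1.81-fold higher. Mapk14 (p38 alpha) rose 1.76-fold. Of 23 immediate early genes 6 rose, among them Ccn2 (connective tissue growth factor), at 4283 and 3929 in CR 72 h and 1352 to 1447 in fed 0 h, 2.95-fold higher. With CR array 1b left out each list had 3 calls. Of the Kruppel-like factors 3 of 10 rose: Klf9, a glucocorticoid target, 4.85- and 2.29-fold on its 2 probes, Klf2 2.69-fold and Klf4 2.46-fold. The Kruppel-like list's median was 1.35 against number 1 and 0.228 against number 2, and without CR array 1b the list had no call; the dimmer Klf9 probe, outside the list's count, kept its call with each array left out.

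**Figure D3:**
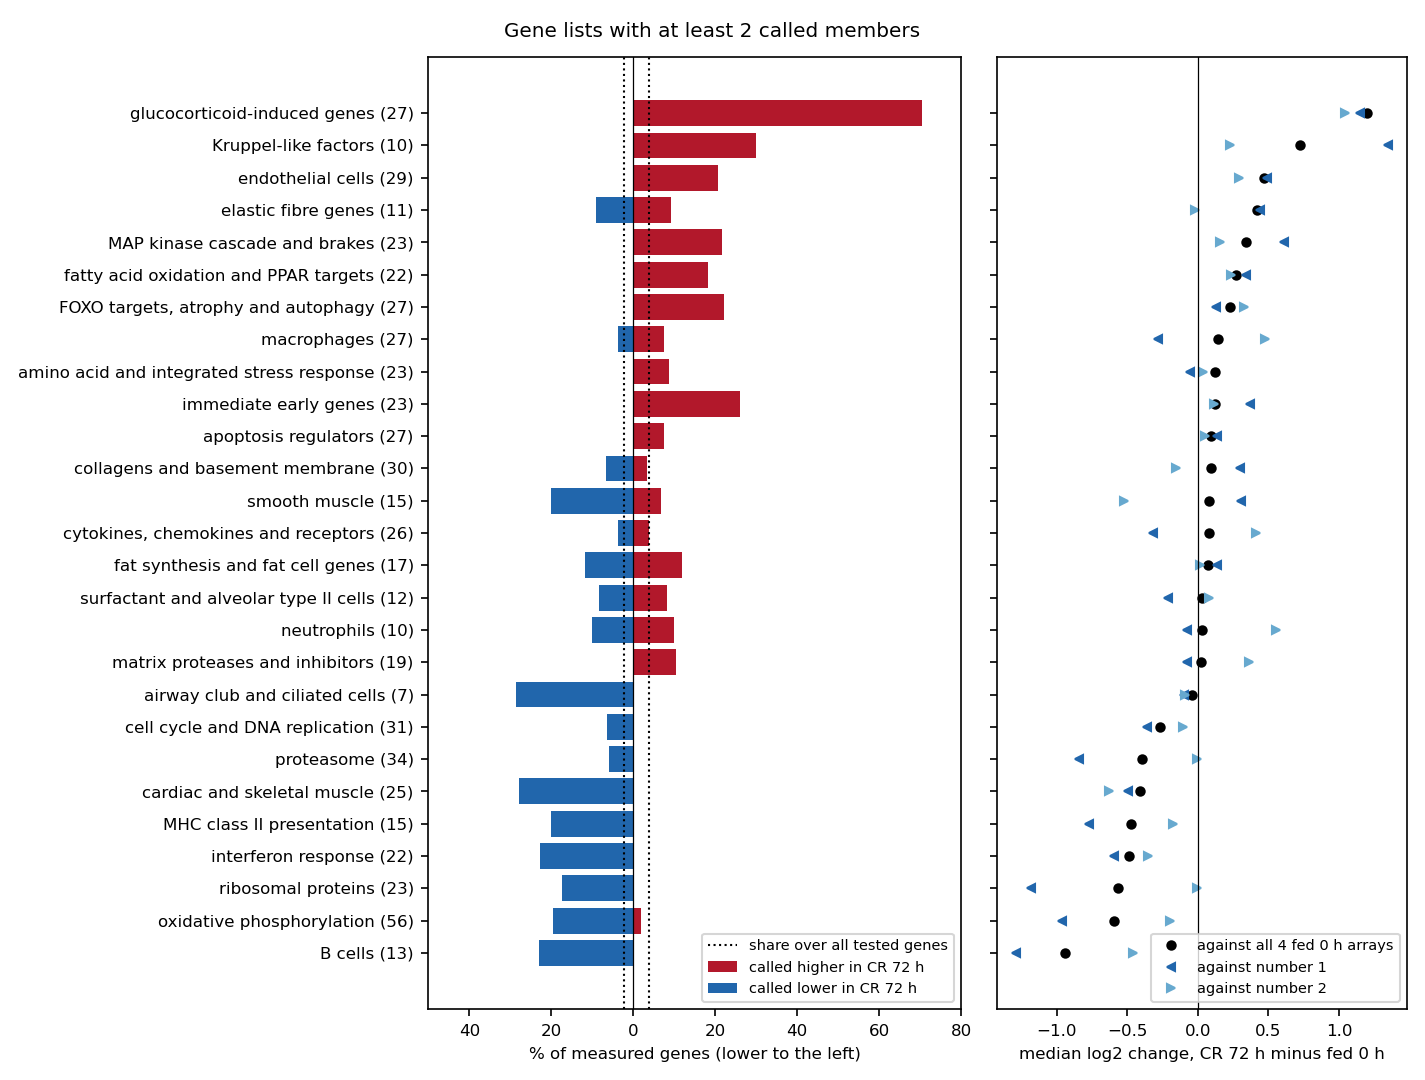
Left, the share of measured genes called higher (red) or lower (blue) in CR 72 h for each list with at least 2 calls, measured genes in brackets; dotted lines give the shares over all 5706 genes. Right, the median log2 change against all 4 fed 0 h arrays, number 1 or number 2; the ribosomal, proteasome and respiratory chain medians run from -1.18 to -0.841 against number 1 and from -0.197 to -0.00379 against number 2, while the glucocorticoid list stays above 1.

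Vessel genes rose in part. Of 29 measured endothelial genes 6 were called higher and none lower, with a median of 0.472 (0.488 against number 1, 0.294 against number 2). Over all genes tested 3.77% were called higher and 2.37% lower. Against number 1 alone 13 were called higher and 3 lower, and against number 2 alone 7 higher and none lower. Against fed 2 and 4 h the median was 0.134, with 3 called higher and none lower. Klf2 and Klf4, given above, are among the 6. Lyve1, the hyaluronan receptor of lymphatic endothelium, was at 3629 and 4050 in CR 72 h and 888.3, 862.0, 763.7 and 1166 in fed 0 h, a fold of 4.22 (3.22 to 5.54; adjusted p = 1.19e-06). Edn1, the vasoconstrictor endothelin-1, was at 1587 and 1780 in CR 72 h and 503.6 to 820.4 in fed 0 h, 2.45-fold higher on its called probe; a second probe was at 0.72 log2 and not called. Thbd, the anticoagulant thrombomodulin, was 1.99-fold higher on 1 probe and at -0.20 log2 on another. Lyve1, Edn1 and Thbd kept the call with each array left out. The general markers did not pass: Cdh5, the cadherin of all endothelial junctions, was at 9855 and 10750 in CR 72 h and 3927, 5391, 9832 and 12760 in fed 0 h (adjusted p = 0.33), with number 1 below the CR arrays and number 2 around them, and Pecam1 changed by 0.07 log2. The list's summed signal was 105776 and 120765 in CR 72 h and 84108 to 116026 in fed 0 h. Gja4, a connexin of arterial endothelium outside that list, was 2.49-fold lower, and its adjusted p was 0.154 without CR array 1a.

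The lung's own markers were among the brightest probes in both groups, and they gave single changes. Sftpc, surfactant protein C of alveolar type II cells, was at 23980 and 34500 in CR 72 h, against 97700 and 88380 in number 1 and 42570 and 51190 in number 2. It was 2.29-fold lower (1.55 to 3.38; adjusted p = 0.0131). The 6 arrays stood in the same order for Sftpc, a very bright probe, as for their highest signal given above. On the number 1 arrays that highest signal, before scaling, was Sftpc itself, so the shared order is no separate measure. The part of the signal range in this fall was not tested. Against fed 2 and 4 h the change of Sftpc was -0.17 log2 (adjusted p = 0.882), and against fed 0 h under quantile normalization -0.64. Sftpb was at 25090 and 28620 in CR 72 h and 12360 to 26130 in fed 0 h, not called, and the phosphate carrier gene Slc34a2, another type II gene, rose 1.57-fold. Among 12 type II genes 1 was thus called in each direction, with a median of 0.0291 (-0.21 against number 1, 0.0772 against number 2). Of 7 type I genes none was called: Ager was at 24990 and 26840 in CR 72 h and 25060 to 31480 in fed 0 h. In the airway list 2 of 7 fell, the club cell secretory gene Scgb1a1 (1.77-fold) and the tubulin gene Tuba1a (2.22-fold), and the change of Scgb1a1 turned to 0.05 log2 under quantile normalization. A second Tuba1a probe, outside the list's count, was 1.73-fold lower by limma (adjusted p = 0.00593) and called against each fed number. It was not followed with arrays left out. None of the calls for Sftpc, Slc34a2, Scgb1a1 and Tuba1a held when either CR array was left out, where their adjusted p reached 0.169 to 0.307.

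Matrix genes moved singly as well. Of 30 collagen and basement membrane genes 1 was called higher, Lama4, a share near the 3.77% over all genes, and 2 lower. The list turned with the fed number: 11 were called higher and 3 lower against number 1 alone (median 0.299), and none higher and 5 lower against number 2 alone (median -0.155). Over all 7440 probes 1672 were called higher and 1377 lower against number 1, and 314 and 114 against number 2. Col3a1, a fibrillar collagen, was at 952.3 and 1066 in CR 72 h and 1793, 1838, 2064 and 2022 in fed 0 h, 1.91-fold lower (adjusted p = 0.000263), and 1 of its other 2 probes was called lower too. The fall held with each array left out. Serpinh1, the collagen chaperone HSP47, was 1.91-fold lower, with an adjusted p of 0.205 without CR array 1b. The elastic fibre list had 1 call in each direction, with a median of 0.44 against number 1 and -0.0213 against number 2. Its member Lox, which cross-links elastin and collagen, was at 994.7 and 1472 in CR 72 h and 294.6, 344.7, 260.1 and 432.2 in fed 0 h, a fold of 3.70 (2.59 to 5.30; adjusted p = 0.000122); a second, dimmer Lox probe was at -0.31 log2. Mfap5, a microfibril gene, was 1.80-fold lower, and Eln, elastin, was at 8491 and 9638 in CR 72 h and 5081 to 8544 in fed 0 h and not called. Of 31 alveologenesis, retinoid and Notch genes 13 were called higher against number 1 alone (median 0.484), none higher and 1 lower against number 2 alone (0.0577), and 5 or 9 higher without fed array 2a or 2b. Against all 4 fed arrays the 1 call was Pdgfra, 2.03-fold higher against all 4 and not called against number 2 (adjusted p = 0.162); its dimmer probe was at -0.47 log2. Timp3 and Plat were the 2 of 19 protease and inhibitor genes called, 1.62- and 1.80-fold higher; that list's median was -0.0789 against number 1 and 0.359 against number 2. The calls of Lama4, Mfap5, Pdgfra and Timp3 were lost when any 1 of the CR or number 1 arrays was left out, with adjusted p up to 0.363, and that of Plat when either CR array was left out (up to 0.395).

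Of 27 apoptosis regulators 2 were called higher and none lower, against 3.77% higher and 2.37% lower over the 5706 genes tested. Both CR arrays lay above all 4 fed arrays for 7 of the 27 and below them for 8. Against number 1 alone 6 were called higher and 5 lower, where 1672 of all 7440 probes were higher and 1377 lower, so these counts are near the share over all probes. Against number 2 alone 4 were called higher and none lower, where 314 of all probes were higher and 114 lower. The 2 called genes, Mcl1 and Bcl2l1, encode inhibitors of cell death. Mcl1 was at 6171 and 6490 in CR 72 h and 4431, 4298, 3618 and 3793 in fed 0 h, 1.57-fold higher (adjusted p = 0.0116). Bcl2l1, which encodes Bcl-xL, was at 4823 and 6062 in CR 72 h and 2790 to 3795 in fed 0 h, 1.66-fold higher (adjusted p = 0.0166). The list's median was 0.0944, near that of all genes, and its range ran from -1.66 to 0.95. Mcl1 lost the call when either CR array was left out (adjusted p up to 0.191) and Bcl2l1 without 1b (0.319).

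Some B-cell genes fell, and the fed numbers differed here. In the B-cell list 3 of 13 measured genes fell with no rise (median -0.938; -1.29 against number 1 and -0.457 against number 2). Fcer2a, the low-affinity IgE receptor CD23, was at 63.99 and 80.19 in CR 72 h, both under the floor, and 219.6, 384.4, 316.1 and 497.3 in fed 0 h, at least 4.22-fold lower. Cd79b, a chain of the B-cell receptor, was at 424.2 and 369.0 in CR 72 h, against 2987 and 2733 in number 1 and 513.2 and 1247 in number 2, 3.82-fold lower. Its partner Cd79a was at 526.8 and 795.5 in CR 72 h and 474.7 to 1768 in fed 0 h, not called. The list's summed signal was 6441 and 7904 in CR 72 h, against 19019 and 19354 in number 1 and 7297 and 11797 in number 2, so the CR range overlapped that of number 2. Ighm, the IgM heavy chain, gave 1 probe that was 6.60-fold higher (898.8 and 793.8 in CR 72 h, 81.73 to 213.6 in fed 0 h), while 3 others stood at 0.39, -0.52 and -0.99 log2 and were not called. Igha, the IgA heavy chain outside the list, averaged 1981 in CR 72 h and 640.9 in fed 0 h, 1.63 log2 higher by limma (adjusted p = 1.11e-05). Its call was not followed with arrays left out. The NK gene Gzma (granzyme A) was at 115.4 and 141.9 in CR 72 h, against 802.3 and 838.8 in number 1 and 220.6 and 180.4 in number 2 (adjusted p = 0.0561), and none of 9 T-cell and 4 NK genes was called. None of the 3 B-cell falls nor the Ighm rise kept its call when either CR array was left out (adjusted p up to 0.215).

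Part of the interferon response genes fell. Of 22 measured, 5 fell, none rose, and 3 had a positive change; the median was -0.49 (-0.594 against number 1, -0.353 against number 2, -0.616 against fed 2 and 4 h). Iigp1, an interferon-inducible GTPase, was at 778.6 and 836.2 in CR 72 h and 2253, 2209, 1522 and 1662 in fed 0 h, 2.33-fold lower (adjusted p = 0.000884), and kept the call with each array left out. Gbp2 and Gbp3, guanylate-binding proteins that act on intracellular microbes, were at 984.6 and 1101 and at 645.6 and 619.6 in CR 72 h, against 1570 to 1904 and 845.8 to 1608 in fed 0 h, 1.61- and 1.82-fold lower. Isg15, a ubiquitin-like modifier, was 2.07-fold lower and Usp18, the protease that removes it, 1.59-fold. Without 1 CR array 1 or 2 of the 5 falls were called. Ifi27, outside the list, was at 2254 and 1714 in CR 72 h and 3343 to 6117 in fed 0 h, 2.29-fold lower, with an adjusted p of 0.205 without CR array 1b.

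Of the 5 fallen interferon genes, 3 had a match to TTTCNNTTTC, the core letters of the interferon-stimulated response element, in the same 250 bases. Their windows are shown as the matches among the list's called genes, though each of these 3 genes lost its call without 1 or both of the CR arrays, left out in turn; capitals mark every match on either strand.
Isg15: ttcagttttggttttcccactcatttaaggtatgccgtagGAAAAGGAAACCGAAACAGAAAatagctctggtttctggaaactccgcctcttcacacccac
Gbp2: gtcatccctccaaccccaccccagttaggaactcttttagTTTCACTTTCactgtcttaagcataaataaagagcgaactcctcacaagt
Gbp3: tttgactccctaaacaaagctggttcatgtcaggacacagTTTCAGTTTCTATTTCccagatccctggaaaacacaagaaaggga
Isg15 lies on the minus strand (chr4:156200835-156200936), where 3 matches overlap. Gbp2 (chr3:142620564-142620653) and Gbp3 (chr3:142559959-142560043) lie on the plus strand, in the same build. The motif stood before 5 of 111 fallen genes (4.5%) and 12 of 197 risen genes (6.09%), against 3.12% of tested genes and 3.46% of all listed genes. The share was higher among the rises than among the falls.

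MHC class II genes, which present antigen on B cells, dendritic cells and macrophages, had 3 of 15 called lower and none higher (median -0.471). Against number 1 alone 7 were called lower and none higher (median -0.771). Against number 2 alone 2 were called higher and 1 lower (-0.177). The list summed to 44177 and 45096 in CR 72 h, against 76771 and 71854 in number 1 and 38865 and 57385 in number 2. H2-Aa was at 5741 and 6427 in CR 72 h, against 15320 and 15610 in number 1 and 8285 and 11920 in number 2, 2.04-fold lower. H2-Eb1 (1.91-fold) and H2-DMb1 (2.32-fold) missed the threshold against number 2 alone, and none of the 3 was called when either CR array was left out (adjusted p up to 0.313). Cd74, the invariant chain, was at 15190 and 17480 in CR 72 h and 12290 to 20590 in fed 0 h and was not called. Macrophage genes went both ways. Mrc1, the mannose receptor, was at 736.0 and 665.9 in CR 72 h and 496.6, 384.0, 276.0 and 306.5 in fed 0 h, 1.96-fold higher. Adgre1, the F4/80 antigen, was at 387.2 and 315.1 in CR 72 h, against 169.1 and 162.2 in number 1 and 39.24 and 61.37, both under the floor, in number 2; it was at least 3.03-fold higher. Plac8, a cysteine-rich protein of myeloid cells, was at 1215 and 1239 in CR 72 h, against 10070 and 10950 in number 1 and 2033 and 2745 in number 2, 4.06-fold lower. Ccr2, the chemokine receptor of blood monocytes, was at 330.1 and 297.2 in CR 72 h and 559.0 to 976.7 in fed 0 h, 2.37-fold lower. The 27 macrophage genes summed to 95283 and 96474 in CR 72 h, against 129618 and 127079 in number 1 and 54239 and 67868 in number 2, with 2 called higher and 1 lower. Against number 1 alone 1 of them was called higher and 10 lower (median -0.283), and against number 2 alone 10 higher and 1 lower (0.478). Mrc1 and Adgre1 missed the threshold against number 1 (adjusted p = 0.0575 and 0.0833). Without a CR array the calls of Mrc1, Adgre1 and Plac8 were lost (adjusted p up to 0.268), and that of Ccr2 without 1b (0.098).

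Heart muscle transcripts, which the lung holds in the walls of its large veins, fell in part. In the list of cardiac and skeletal muscle, 7 of 25 measured genes fell with no rise (median -0.413; -0.492 against number 1, -0.633 against number 2). Myl7, the atrial myosin light chain, was at 3795 and 3242 in CR 72 h and 10730, 10490, 9463 and 7411 in fed 0 h, 2.69-fold lower (adjusted p = 0.000208). Tnni3, cardiac troponin I, was at 1065 and 1038 in CR 72 h and 2001 to 2586 in fed 0 h, 2.22-fold lower (adjusted p = 5.96e-05). Myl4 was at 2029 and 2042 in CR 72 h and 4048 to 5550 in fed 0 h, 2.26-fold lower. These 3 kept the call with each array left out, and the CR arrays lay below every fed array. Mb (myoglobin), Actc1, Tnnc1 and Csrp3 were the other called members. Myh6, the atrial myosin heavy chain, was at 1778 and 1869 in CR 72 h, against 590.2 and 484.3 in number 1 and 2835 and 1904 in number 2, and was not called. The list summed to 27833 and 27115 in CR 72 h and 40846 to 50547 in fed 0 h. Against fed 2 and 4 h the median was -0.272 and none of the 25 was called; how much heart or vein tissue each sample held was not tested.

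Of 15 smooth muscle genes 3 contractile ones fell and 1 rose. The list's median was 0.309 against number 1 (4 called higher, 4 lower) and -0.52 against number 2 (1 higher, 5 lower). Tagln (SM22) was at 2666 and 2336 in CR 72 h and 6106, 5892, 4755 and 3565 in fed 0 h, 1.99-fold lower, Myl9 was 1.65-fold lower and Cnn1 (calponin) 1.69-fold. Acta2, smooth muscle actin, was at 4455 and 5391 in CR 72 h and 4095 to 8104 in fed 0 h and was not called, and the matricellular gene Sparcl1 rose 1.63-fold. The direction for Cnn1 turned against fed 2 and 4 h (0.14 log2). Without CR array 1b none of the 4 was called.

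Genes of the respiratory chain, the ribosome and the proteasome were lower against number 1, while their medians against number 2 lay closer to 0. Of the 56 measured subunits and factors of oxidative phosphorylation 11 fell, and Sdha alone rose; the median was -0.596, made of -0.963 against number 1 (43 called lower) and -0.197 against number 2 (1 called lower). Of 23 ribosomal protein genes 4 fell, with medians of -1.18 against number 1 and -0.00379 against number 2. Of 34 proteasome genes 2 fell, with medians of -0.841 against number 1 and -0.00773 against number 2. Ndufa3, a complex I subunit, was at 4202 and 3689 in CR 72 h, against 9364 and 9984 in number 1 and 6033 and 5699 in number 2, 1.91-fold lower, and was the 1 respiratory gene called against both. Leaving out 1 CR array left at most 1 respiratory call, 1 of the proteasome and none of the ribosome, while leaving out fed array 2a or 2b gave 26 or 24 respiratory falls. Rps28 turned to 0.03 log2 under quantile normalization.

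Several of the largest changes lay outside the lists. Xdh, xanthine dehydrogenase, which makes uric acid, was at 4145 and 5476 in CR 72 h and 708.3, 816.1, 1204 and 2058 in fed 0 h, 4.36-fold higher and called with each array left out. Sorbs3 (vinexin), a focal adhesion adaptor, was at 1300 and 2039 in CR 72 h and 106.8, 41.63, 139.1 and 538.3 in fed 0 h, 10.2-fold higher as a ratio of geometric means (3.90 to 26.8), with 1 fed array under the floor. Inpp5d, the SHIP1 phosphatase of blood cells, was 5.44-fold higher on 1 probe and at -0.38 log2 on another. Thrap3 was 4.63-fold higher on a dim probe (345.5 and 512.1 in CR 72 h, 81.08 to 104.5 in fed 0 h), at 0.54 log2 on a bright one, and at -0.03 against fed 2 and 4 h. Tff2, a trefoil peptide of mucus, was at 538.3 and 390.2 in CR 72 h and 1711, 1553, 1156 and 1065 in fed 0 h, 2.93-fold lower. Lsm7, Kdelr3 and Dpm3 were 3.18-, 2.81- and 2.35-fold lower, with the number 1 arrays above the number 2 arrays in each. Tcf25 was at least 5.35-fold higher on 1 probe whose fed arrays all lay under the floor, and at 0.32 log2 on another. Tns2, Gtpbp1, Rnps1 and Slc19a1, 3.79- to 3.60-fold higher (with second Gtpbp1 and Slc19a1 probes at -0.24 and -0.36 log2), and Clec11a, S100a4, H3c14 and Lst1, 3.35- to 3.04-fold lower, were not called against each fed number. Without CR array 1b the calls of Sorbs3 (adjusted p = 0.147), Inpp5d (0.189), Tff2 (0.0515) and Kdelr3 (0.277) were lost, and those of Lsm7, Dpm3, Thrap3 and Tcf25 were lost when either CR array was left out (up to 0.268).

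The clock genes other than Per1 did not pass. Per2 was at 208.5 and 257.7 in CR 72 h and 58.39 to 163.1 in fed 0 h (adjusted p = 0.0577), and Dbp, a clock output gene, at 54.73 and 74.82 in CR 72 h and 108.8 to 198.7 in fed 0 h (0.0799). Arntl was at 780.0 and 991.7 in CR 72 h and 543.6 to 668.4 in fed 0 h, and all 3 had both CR arrays beyond the fed range. Clock and Nr1d1 changed by 0.26 and -0.23 log2. Of 16 heat shock and cold-inducible genes Hspa1b, an inducible HSP70, was called, at 723.6 and 977.0 in CR 72 h, against 213.0 and 124.7 in number 1 and 417.7 and 430.9 in number 2, 3.20-fold higher; its adjusted p reached 0.234 without a CR array. Herpud1, of the endoplasmic reticulum stress response, rose 1.99-fold with each array left out, and Nars 1.61-fold, the 2 calls among 23 genes of the amino acid and integrated stress response. Ndrg1 was the 1 call among 24 glycolysis and hypoxia genes (1.42-fold higher). Kif22 and Stmn1 fell 1.77- and 1.62-fold among 31 cell cycle genes. Of 26 cytokine and receptor genes Il4ra rose 1.70-fold and Ccr2 fell, with a list median of -0.315 against number 1 and 0.412 against number 2. In the neutrophil list Lcn2 rose 2.46-fold on 1 probe, with another at -0.02 log2 (adjusted p = 0.953), and Camp was 1.97-fold lower. The calls of Nars, Ndrg1, Kif22, Stmn1, Il4ra, Lcn2 and Camp were lost when either CR array was left out, with adjusted p up to 0.415. S100a8 was at 502.1 and 509.0 in CR 72 h, against 2488 and 2432 in number 1 and 127.8 and 342.2 in number 2, and was not called. No gene was called among 30 antioxidant, 8 erythroid, 5 mesothelial and 4 mast cell genes by limma; calls did arise against single fed numbers. Against number 1 alone 4 antioxidant genes were called higher and 9 lower, 3 erythroid genes lower, 3 mesothelial genes higher, and 2 mast cell genes higher and 1 lower. Against number 2 alone 1 antioxidant and 1 erythroid gene were called higher and 1 mast cell gene lower. Over all 7440 probes 1672 were called higher and 1377 lower against number 1, and 314 and 114 against number 2.

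The third day was then set against the other late times, which share no array with CR 72 h. Against CR 96 h, 1 probe of 7440 was called (0.0134%), with 165 at an unadjusted p under 0.05. Against the mean of CR 24, 48 and 96 h, 2 were called (0.0269%), with 389 at an unadjusted p under 0.05. Cyp1a1 was called in both. This cytochrome P450 is induced through the aryl hydrocarbon receptor and is the usual readout of that receptor in lung. Its signal was 6069 and 3480 in CR 72 h, against 589.1 to 663.1 at 24 h, 209.5 to 423.7 at 48 h, 486.4 to 591.9 at 96 h and 1480, 1435, 625.1 and 866.2 in fed 0 h. Over all 24 arrays the next highest value was 1713. The change was 3.10 log2 against CR 96 h (adjusted p = 0.00062), 3.31 against the 3 late times (9.47e-06) and 2.15 against fed 0 h (0.000371), the last a fold of 4.44 (2.80 to 7.02). At the other late times the gene was below fed 0 h, with log2 changes of -0.73, -1.80 and -0.95 at 24, 48 and 96 h. A second, dim Cyp1a1 probe, which did not pass the filter, read 33.94 and 85.70 in CR 72 h and 50.58 to 237.4 in fed 0 h. It did not show the rise. Of the other genes of that receptor, chosen after values were seen, Tiparp was at 1992 and 1856 in CR 72 h and 774.8, 464.3, 518.6 and 479.5 in fed 0 h, 3.52-fold higher (adjusted p = 0.00345). Cyp1b1 was at 572.6 to 778.5 in CR 72 h and 89.91 to 627.7 in fed 0 h (adjusted p = 0.203), and Aldh3a1 at 1826 to 2159 in CR 72 h and 1064 to 2284 in fed 0 h (0.353). Nqo1, Ahrr and Cyp1a2 did not pass the filter, so they have no test, and none had a higher mean in CR 72 h. The 2 Nqo1 probes averaged 148.3 and 116.6 in CR 72 h and 248.5 and 184.6 in fed 0 h, Ahrr averaged 17.48 in CR 72 h and 41.77 in fed 0 h, and Cyp1a2 65.66 in CR 72 h and 73.76 in fed 0 h. The letters TNGCGTG, the core of the receptor's response element, were not in the 250 bases before the Cyp1a1 start. They stood in that window for 7.84% of tested genes. Bases further upstream were not searched, so their absence here does not show that the gene lacks the element.

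The other probe called against the 3 late times named Zfp787, a zinc finger gene. It was at 57.81 and 87.01 in CR 72 h and 419.1, 442.1, 710.2 and 532.8 in fed 0 h, at least 6.15-fold lower, since 1 of the 2 CR arrays lay under the floor. Its change against the late mean was -2.68 log2 (adjusted p = 0.035). A second Zfp787 probe was at 259.3 to 524.6 in CR 72 h and 326.1 to 450.5 in fed 0 h, a change of -0.01 log2. Without CR array 1b the call of the first probe against fed 0 h was lost (adjusted p = 0.0522).

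With CR 24 and 48 h alone as the comparison, 29 probes were called (0.39%), 24 higher and 5 lower at 72 h. Among them Mrc1 changed by 1.90 log2, Adgre1 by at least 2.12 (its means at 24 and 48 h lay under the floor), Cd68 by 1.26, Cybb, the phagocyte oxidase, by 1.89 and Itgax by 0.90, all of them known from macrophages. Against CR 96 h none of the 5 changed by more than 0.55. These genes were picked after their values were seen. Cybb lies outside the macrophage list of 27 measured genes, and no further gene of that list was called against CR 24 and 48 h. Sftpc (-1.50) and Scgb1a1 (-0.96) were among the 5 lower. The CR 24 and 48 h arrays had highest signals of 74440 to 90500, against 32150 and 36540 at 72 h and 41260 and 41370 at 96 h. At 24 and 48 h the highest signal was that of Sftpc itself on every array. The part of the signal range in these calls was not tested.

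**Figure D4:**
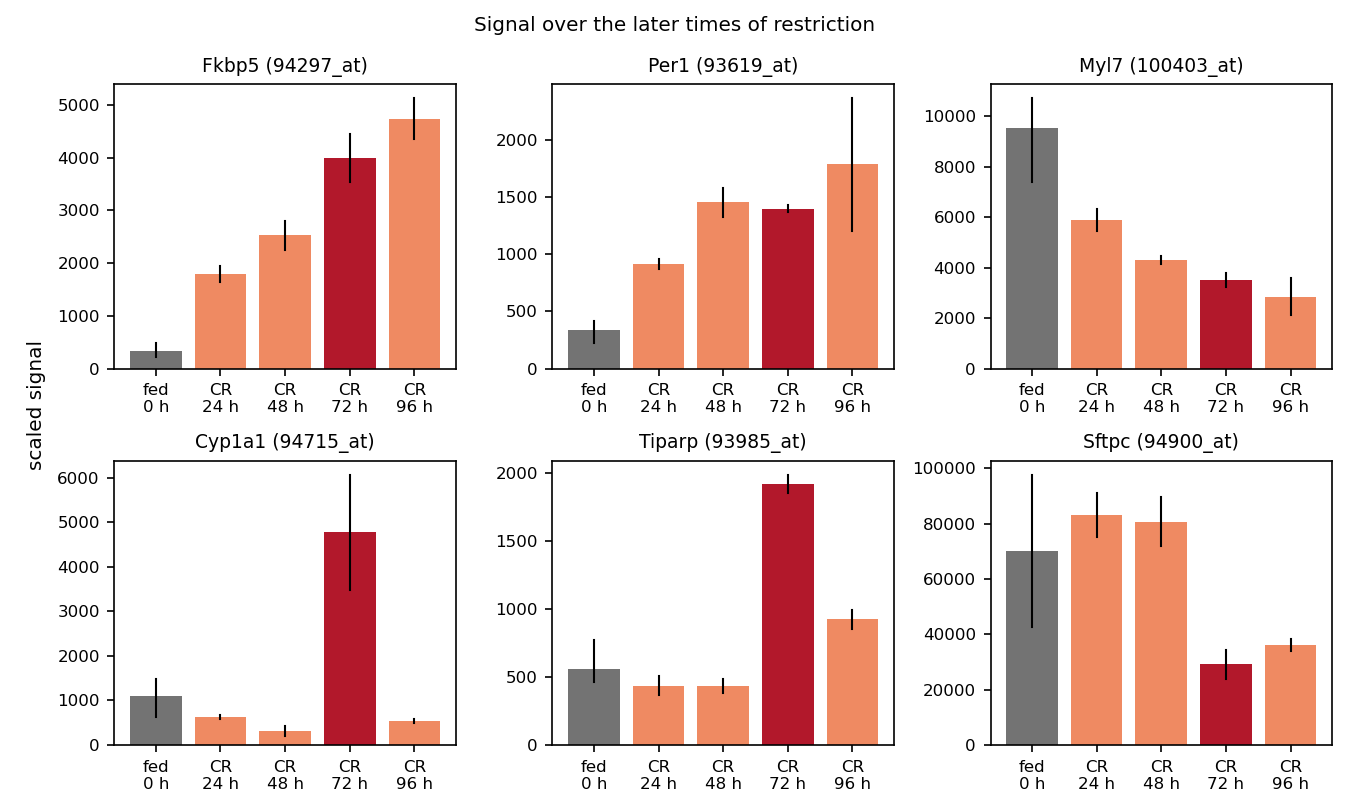
Mean scaled signal (bars, from 0) with the lowest and highest array (black lines) in fed 0 h (4 arrays) and CR 24, 48, 72 and 96 h (2 arrays each). Fkbp5, Per1 and Myl7 differ from fed 0 h in 1 direction at every late time, Cyp1a1 and Tiparp stand highest at 72 h, and Sftpc is low at 72 and 96 h.

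The changes from fed 0 h at the late times share their control arrays and are given side by side. Fkbp5 changed by 2.47, 2.96, 3.62 and 3.88 log2 at 24, 48, 72 and 96 h, Ddit4 by 1.22, 1.65, 2.24 and 2.63, and Pdk4 by 2.45, 2.99, 2.98 and 2.99. Lpl changed by 1.20, 1.40, 2.09 and 2.15 on its brighter probe, and Lyve1 by 1.34, 1.39, 2.08 and 2.09. Myl7 changed by -0.68, -1.13, -1.43 and -1.77, and Col3a1 by -0.33, -0.99, -0.93 and -1.47. Sgk1, at 0.15, -0.12, 0.82 and 1.28, and Cited2, at -0.12, 0.04, 1.24 and 1.03, differed from fed by little on the first 2 days. For none of these genes was 72 h called different from 96 h.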

How the data were processed

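Lung RNA of 24 arrays was read from the deposited table of linear probe set intensities, which the authors had scaled to a shared trimmed mean, as tested on the values, with software that the labels leave unnamed. Groups come from the labels. All arrays were brought to 1 common median (that of their own medians), floored at the 25th percentile of all values (80.37) and log2-transformed. Probe sets reaching their array's median on at least 2 arrays were kept (7440 of 12422); the 66 controls were left out. Symbols come from the platform annotation, updated through Entrez identifiers (GRCm38.p6): 10833 probe sets had 1 symbol, 396 several and 1193 none. Group means of all 24 arrays were fitted with limma 3.58.1 in R 4.3.3 (eBayes with an intensity trend; Benjamini-Hochberg). A fold is a ratio of geometric means with its 95% confidence interval. The floor understates changes of dim probes, so a fold of a group with arrays under it is given as at least that size where the ratio of mean signals is larger still. The steps were tested on simulated data.

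Lists hold 1 probe per gene, the brightest, and get counts and medians only. The genes named were the 15 largest rises and falls among probes called against all 4 fed arrays and each number, the 5 largest in each direction not called against each number, up to 4 called members per list by smallest p, the genes called against later times, and fixed cell type and clock genes. The members, the 41 lists and these rules were chosen with earlier results of these data known. Genes named beyond these rules were picked with their values in view. No 2 arrays held identical values. The letters a and b did not pair the groups.

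Alternatives covered scaling, floor, filter, variance model, groups in the fit, letters, fed controls and each array left out. 1 array of another platform, for which the submitters' processing notes name MAS5, was placed in no group and not used here. With 2 CR 72 h and 4 fed 0 h arrays, their number limits the precision.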

Additional observations from a re-analysis of the deposited data

Results flagged for a closer look

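Among the 138 named probes checked in the 4 fed 0 h arrays, 5 had 1 array standing apart from the other 3 by more than the 95% limit of Dixon's test; chance gives about 1 in 20. Dusp1 was lowest on fed array 2a, at 4573 against 5462 to 5618 on the other 3. Fasn was highest on array 2b, at 3628 against 2609 to 2708. Kif22 was lowest on array 1a, at 470.4 against 579.9 to 599.7, as was the dimmer Lpl probe, at 100.2 against 245.4 to 269.8. Slc19a1 was highest on array 2b, at 179.9 against 87.30 to 96.36.

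CR 72 h differed from other late times at 2 genes by limma's test of the difference itself. Cyp1a1 was 3.10 log2 higher than at CR 96 h (adjusted p = 0.00062) and 3.31 higher than over CR 24, 48 and 96 h (9.47e-06), in 2 of 2 arrays. Zfp787, on 1 of its probes, was at -2.68 log2 against the 3 late times (adjusted p = 0.035), in 2 of 2 arrays.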

How the results depend on the processing

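The count of 433 probes called against fed 0 h (274 higher, 159 lower) was 12 (11 and 1) with only the compared groups in the fit and 5 (5 and 0) with letters a and b averaged to 1 sample. It was 3049 (1672 and 1377) against number 1, 115 (75 and 40) against fed 2 and 4 h and 167 (115 and 52) against all 10 fed arrays. Without the filter 105 were lower. Leaving out 1 array gave 61 to 1088 in all, 50 to 665 higher and 11 to 515 lower. With the letter as a replicate block it was 361 (231 and 130); the letters share only a letter, with no pairing shown by the deviations. The 1 probe called against CR 96 h was 2 with the floor at the 10th percentile or no filter, 0 with only the compared groups or with letters averaged, and 0 to 2 with 1 array left out. The 2 called against the 3 late times were 5 with no scaling, 1 under quantile normalization, 8 with no filter, 4 with the 75th percentile filter, 9 with only the compared groups, 1 with the replicate block, 29 against CR 24 and 48 h only, and 1 to 2 with 1 array left out. The sign turned for Cnn1 (0.136) and Thrap3 (-0.0332) against fed 2 and 4 h, and for Rps28 (0.0301) and Scgb1a1 (0.0466) under quantile normalization; the cause was not tested. Few arrays, and the floor for dim probes, limit all of these values.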
